A study of Mus musculus with 4 samples.

Results

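The globin genes encode the protein chains of haemoglobin, and their chaperone binds free alpha chains. The genes listed were the adult alpha globin Hba-a1, the embryonic zeta globin Hba-x, the adult beta globins Hbb-b1 and Hbb-bt, the embryonic beta-like globins Hbb-y and Hbb-bh1, and the chaperone gene Ahsp. They were chosen by symbol, through the transcript accession that each array probe carries and the RefSeq annotation. Of the 7 genes, 6 were found this way, with 7 probes among the 55681 probes that were not controls, and Ahsp is not analysed here. Only 3 of the 6, Hba-a1, Hbb-b1 and Hbb-bt, were well above background on all 4 arrays.

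Gene expression was read on 4 one-colour microarrays on 1 slide, 1 array for each group. The groups were MEP cells (megakaryocyte and erythroid progenitors) of mice given JQ1, MEP cells of mice given DMSO, LSK cells (stem and multipotent progenitors, negative for lineage markers and positive for c-Kit and Sca-1) from mice given JQ1, and LSK cells from mice given DMSO. JQ1 blocks the BET bromodomain proteins, which bind acetylated histones, and DMSO is its solvent. Both were given for 2 weeks. All 4 groups share the genotype JAK2V617F/Ezh2Δ/Δ on the C57BL/6 strain: donor marrow with the JAK2V617F mutation, a floxed Ezh2 gene and Cre-ERT2 was grafted into irradiated CD45.1+ wild-type hosts, and Ezh2 was deleted before treatment. By this stated genotype, no group had intact Ezh2 or lacked the mutation. The promoters of the JAK2V617F allele and of Cre-ERT2, the age of the mice, the number sorted for each array and whether host cells were gated out are not given in the sources used here.

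Haemoglobin joins alpha-like and beta-like chains with heme, and its genes lie in an alpha cluster and a beta cluster whose members are switched on in turn during development. Zeta, epsilon-y and beta-h1 globin (Hba-x, Hbb-y and Hbb-bh1) are made mainly by primitive red cells of the embryo, and alpha and adult beta globin by later red cells. Globin transcription is driven by GATA1 and KLF1 and rises steeply as erythroid progenitors mature, while BCL11A and its partners hold embryonic genes silent in adult cells. Mouse strains differ in their adult beta genes: the C57BL/6 type carries Hbb-bs and Hbb-bt, and another type carries Hbb-b1 and Hbb-b2. The array has probes for Hbb-b1, Hbb-bt and Hbb-b2 by accession but none so named for Hbb-bs. Because these genes are nearly identical, as are Hba-a1 and Hba-a2, each probe may read its neighbour's transcript, and probe sequences were not used here. By that typing, C57BL/6 mice would carry neither Hbb-b1 nor Hbb-b2. Below, these names stand for the probes, counts of members included, and which transcripts the probes read was not tested.

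The promoters of the 4 members with a promoter sequence at hand (GRCm38.p6 build) are shown. They are given because the members differed between arrays in different ways, also within the adult and the embryonic genes. No promoter sequence was at hand for Hbb-b1, Hbb-bh1 and Ahsp. Each run covers 250 bases before to 50 bases after the start of the gene, on the gene's strand, and capitals mark matches on either strand to 4 motifs: the KLF1-type core CACCC, the box called CCAAT, the GATA-type core GATAA and the TATA-type box ATATAA. The windows are chr11:32283422-32283721 (plus strand) for Hba-a1, chr11:32276350-32276649 (plus strand) for Hba-x, chr7:103813874-103814173 (minus strand) for Hbb-bt and chr7:103853158-103853457 (minus strand) for Hbb-y.
Hba-a1: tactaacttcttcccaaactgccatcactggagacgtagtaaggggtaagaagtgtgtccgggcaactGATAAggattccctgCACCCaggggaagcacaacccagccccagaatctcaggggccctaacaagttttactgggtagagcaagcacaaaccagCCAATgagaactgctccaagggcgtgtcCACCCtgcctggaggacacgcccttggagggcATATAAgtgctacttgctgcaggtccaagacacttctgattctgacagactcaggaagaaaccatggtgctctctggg
Hba-x: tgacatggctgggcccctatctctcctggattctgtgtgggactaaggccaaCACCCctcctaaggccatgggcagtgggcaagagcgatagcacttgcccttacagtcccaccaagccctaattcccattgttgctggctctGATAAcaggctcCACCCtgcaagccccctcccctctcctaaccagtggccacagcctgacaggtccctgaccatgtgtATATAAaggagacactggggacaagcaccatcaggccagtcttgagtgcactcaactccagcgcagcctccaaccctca
Hbb-bt: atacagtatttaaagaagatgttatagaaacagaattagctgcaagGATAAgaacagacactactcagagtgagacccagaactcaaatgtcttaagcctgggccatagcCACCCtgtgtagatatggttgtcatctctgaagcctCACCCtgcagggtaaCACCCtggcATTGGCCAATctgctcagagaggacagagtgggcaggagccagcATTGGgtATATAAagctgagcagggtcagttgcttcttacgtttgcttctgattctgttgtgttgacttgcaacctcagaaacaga
Hbb-y: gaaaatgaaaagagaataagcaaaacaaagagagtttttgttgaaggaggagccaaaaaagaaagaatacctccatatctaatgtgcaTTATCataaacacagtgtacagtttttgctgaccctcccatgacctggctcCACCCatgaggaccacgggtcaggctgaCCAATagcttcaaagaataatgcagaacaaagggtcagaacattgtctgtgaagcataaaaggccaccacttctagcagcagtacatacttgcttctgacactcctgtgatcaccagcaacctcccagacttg

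Hba-a1 had 2 CACCC matches and Hba-x had 2, against 3 in Hbb-bt and 1 in Hbb-y. Each of the 4 windows held 1 GATAA match. CCAAT was found once in Hba-a1 and Hbb-y and 3 times in Hbb-bt, where 2 of the matches, on opposite strands, adjoin each other, and not in Hba-x. ATATAA began 28 bases upstream of the start in Hba-a1 and 29 bases upstream in Hba-x and Hbb-bt, and these letters were not in the Hbb-y window. Among 32851 promoters of the same length, 57.5% held the CACCC motif, 37.4% held the CCAAT motif, 25.4% held the GATAA motif and 9.82% held the ATATAA motif. The Hba-a1 and Hba-a2 windows share a run of 297 bases, while the longest run shared by the Hbb-bt and Hbb-bs windows is 14 bases.

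The arrays differed from each other as a whole. JQ1 MEP had 25175 probes well above background, DMSO MEP 29617, JQ1 LSK 26378 and DMSO LSK 25392. Over 23013 probes the DMSO MEP array had the lowest correlations with the others (Pearson's r 0.973 to 0.976, across probes), against 0.991 between the LSK arrays. Some markers of the labels separated the sorted cells, and others did not. Sca-1 (Ly6a) read 271 and 263 in MEP under JQ1 and DMSO and 4740 and 4710 in LSK, and Gata1 read 20100.4 and 13547 in MEP and 1720 and 1659 in LSK. Of the LSK markers measured, 6 of 10 were at least 2-fold lower in MEP under JQ1, relative to the median gene. Under DMSO it was 3 of 11. Slamf1 went the other way, at 297 and 383 in MEP under JQ1 and DMSO against 131 and 56.2 in LSK. Cd34 was bright on all 4 arrays, at 20519.5 and 27806 in MEP and 59256 and 38394 in LSK. Genes of granulocytes and monocytes were detected on all 4 arrays, MEP included, with 12 or 13 of 13 markers well above background on each. Their levels ranged widely, in JQ1 MEP from 203 for Ltf to 267286 for Mpo. In a bulk sample, fewer cells of a type and less RNA per cell cannot be told apart.

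Levels below are processed signals in intensity units, and the ± is the scanner software's error of that spot, since each globin probe has 1 spot and each group 1 array. Differences are log2 values after scaling each array to its 75th percentile, relative to the median gene measured on both arrays. The median over all measured genes is therefore 0. A gene counts as called when it differs by at least 2-fold on that scale. With 1 array a group there is no test and no replicate check. As a measure of spread between probes, the SD of the difference among probes of the same gene was taken. It was 0.39 log2 for JQ1 against DMSO in MEP and 0.26 for JQ1 against DMSO in LSK. For MEP against LSK it was 0.27 under JQ1 and 0.37 under DMSO. This SD does not cover differences between mice, sorts or labelling reactions, nor error shared by all probes of an array.

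Among the 3 members measured on every array, alpha globin differed most between the MEP arrays. Hba-a1 read 4017 ± 402 in JQ1 MEP and 1633 ± 163 in DMSO MEP. In JQ1 LSK it read 112 ± 12.1, and in DMSO LSK 149 ± 15.9. It was thus bright on both MEP arrays and brightest under JQ1, while on the LSK arrays it was dim and dimmer under JQ1. Hba-a2, the second alpha globin gene, whose probe may read the same transcripts, read 26760.0 ± 2676 in JQ1 MEP and 9782 ± 978 in DMSO MEP. It read 694 ± 69.6 in JQ1 LSK and 1023 ± 102 in DMSO LSK, the same order of arrays as Hba-a1.

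The adult beta probes did not follow alpha globin. Hbb-b1 read 429 ± 43.1 in JQ1 MEP and 467 ± 46.9 in DMSO MEP, against 79.2 ± 9.14 in JQ1 LSK and 78.3 ± 9.43 in DMSO LSK. The level of this probe, whichever transcript it reads, thus separated the cell types but not the treatments. Hbb-bt was high everywhere, at 23606 ± 2361 in JQ1 MEP and 16305 ± 1631 in DMSO MEP, and higher still in LSK, at 41153 ± 4115 under JQ1 and 33409.6 ± 3341 under DMSO. It was the only measured member whose MEP values lay below its LSK values. Hbb-b2, which is no member, read 1924 ± 193 in JQ1 MEP, 1679 ± 168 in DMSO MEP, 2016 ± 202 in JQ1 LSK and 1661 ± 166 in DMSO LSK.

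The embryonic genes were near background. Hbb-y, the epsilon-y globin, read 79.7 ± 9.29 in JQ1 MEP and 6.47 ± 4.36 in DMSO MEP by its brighter probe. The same probe read 21.5 ± 4.88 in JQ1 LSK and 9.77 ± 5.24 in DMSO LSK. Its other probe read 58.1 ± 7.49, 4.25 ± 4.27, 16.0 ± 4.73 and 6.82 ± 5.14 on JQ1 MEP, DMSO MEP, JQ1 LSK and DMSO LSK. Both probes were well above background in JQ1 MEP and on no other array. Hbb-bh1, the beta-h1 globin, was above background only in DMSO MEP, at 40.6 ± 5.94, and read 23.0 ± 5.36 in JQ1 MEP, 11.9 ± 4.62 in JQ1 LSK and 17.2 ± 5.45 in DMSO LSK. Hba-x was not well above background on any array, with readings of 4.13 to 4.91 and errors as large as the readings.

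**Figure D1:**
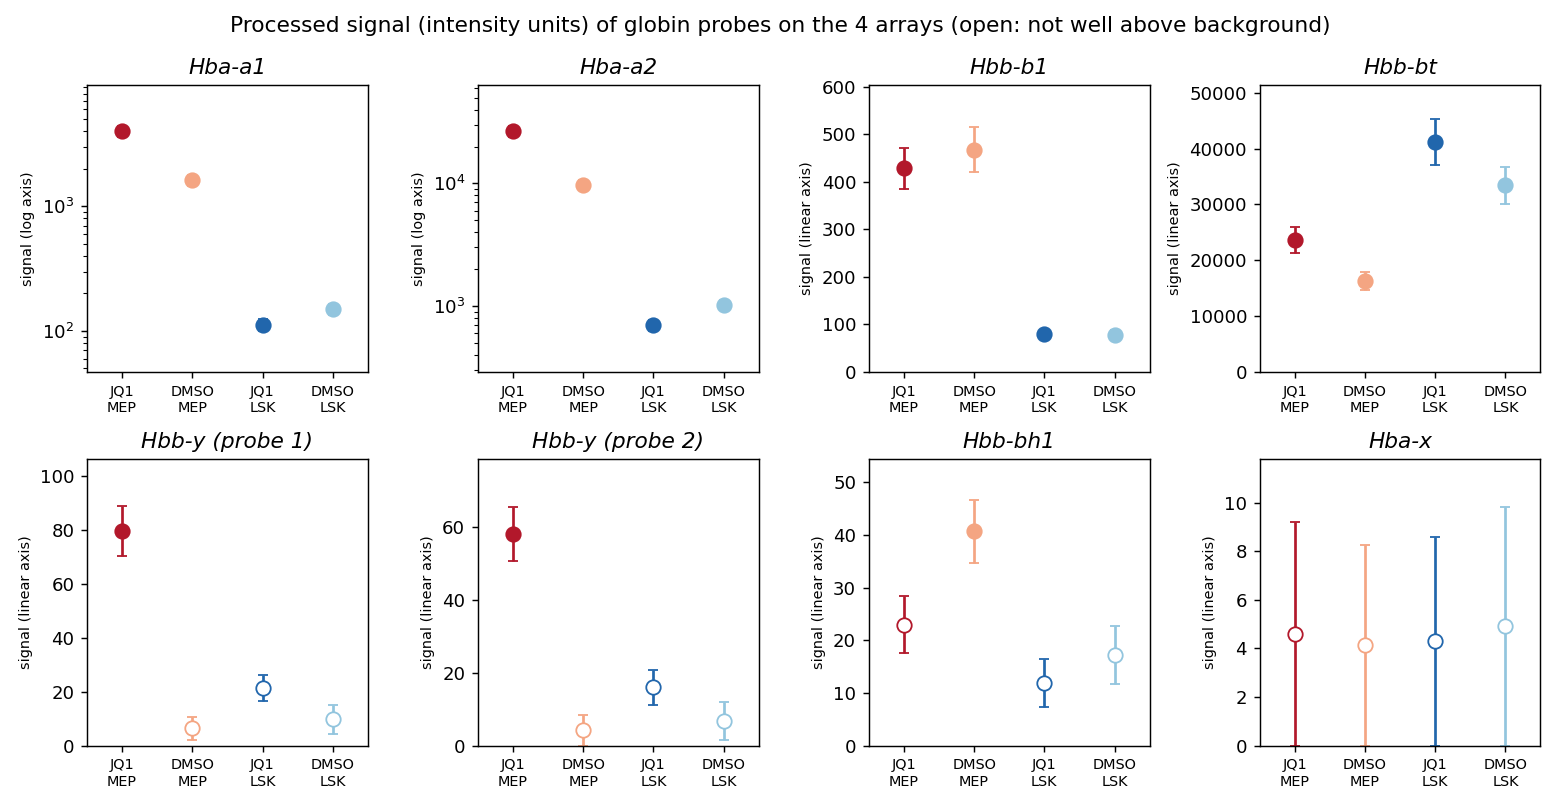
Processed signal (intensity units) of every member probe and of Hba-a2 on the 4 arrays, with the scanner software's error as bars and open circles where the probe was not well above background. Axes are logarithmic for Hba-a1 and Hba-a2 and linear from 0 for the others. Hba-a1 reads 4017 in JQ1 MEP and 112 in JQ1 LSK, Hbb-bt is higher in LSK than in MEP, and Hbb-y is above background only in JQ1 MEP.

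JQ1 against DMSO in MEP compares globin transcripts between 1 array of MEP cells from each treatment, which was given for 2 weeks. Hba-a1 was 2.73-fold higher on the JQ1 array (1.45 ± 0.20 log2, scanner error), which ranked it at 42 of 12550 measured genes. Hba-a2 was 3.03-fold higher (1.60 ± 0.20). Hbb-bt was 1.61-fold higher (0.68 ± 0.20), short of the call, and Hbb-b1 read 0.02 ± 0.21, less than its error. Of the 3 measured members, 1 was called higher and 0 lower, where 0.980% of all measured genes were called higher and 5.77% lower. The direction of Hba-a1 was the same under all 8 alternatives of processing, from 0.89 to 2.20 log2, but scaling to spike-in probes brought it below the call (0.89). Hbb-bt ranged from 0.12 to 1.43, and Hbb-b1 changed sign, from -0.54 with spike-in probes to 0.78 with scaling to the median.

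Hbb-y was above background on the JQ1 MEP array alone, so that only a bound of its difference can be given. It was at least 9.86-fold higher than in DMSO MEP by its brighter probe and at least 7.18-fold by the other, taking the lowest signal well above background on the DMSO array (8.96) as the floor. With the 5th percentile of such signals (25.8) as a stricter floor, chosen after the data were seen, the bound for the brighter probe was 3.43-fold. With normexp background correction it was 0.90 log2, below the call. That correction adds an offset of 50 to every signal, which by itself narrows the log2 differences of dim probes. Hbb-bh1 went the other way and was at least 1.59-fold lower under JQ1, short of the call, and at least 1.32-fold lower with the stricter floor. Its sign turned with scaling to the median (0.08). Of the 2 members above background on 1 array, 1 was called higher by its bound, where bounds called 80.9% of the 246 genes above background on the JQ1 array alone and 29.8% of the 1183 above background on the DMSO array alone.

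The DMSO MEP array also carried high levels of genes that respond to cell handling and of nuclear RNAs. Of 15 such genes measured, 14 were called lower in JQ1 MEP than in DMSO MEP, with a median of -2.57. Their summed level, in multiples of the 75th percentile, was 151 in JQ1 MEP and 527 in DMSO MEP, against 136 in JQ1 LSK and 165 in DMSO LSK. Granulocyte and monocyte markers differed in both directions. Their summed level, which a few very bright genes carry, was 2345 in JQ1 MEP and 1326 in DMSO MEP and of 1229 in JQ1 LSK and 2051 in DMSO LSK. Of these markers, 2 of 13 measured were called higher and 1 lower under JQ1 in MEP (median 0.41), and 2 of 12 higher and 5 lower in LSK (median -0.76). The elastase gene Elane (1.40 in MEP and -1.09 in LSK) and Ly6c1 (1.38 and -1.19) were called on the same side as alpha globin, but Lyz2 was called lower in MEP (-1.26), and Camp (1.91) and S100a9 (1.47) were called higher in LSK. Of 12 measured B-lymphoid markers, 8 were called lower under JQ1 in MEP (median -1.51) and 9 in LSK (median -2.39), and Pax5 was below background on every array. They summed to 66.2 in JQ1 MEP and 106 in DMSO MEP and to 235 in JQ1 LSK and 453 in DMSO LSK. LSK markers summed to 137 in JQ1 MEP and 126 in DMSO MEP and to 349.9 in JQ1 LSK and 278 in DMSO LSK. Cd34 was the brightest of them on each array, and none of these sums is relative to the median gene. On that scale 1 of 10 measured LSK markers, Procr (-1.33), was called lower under JQ1 in MEP and 0 higher (median -0.14). In LSK 2 of 11 were called higher and 0 lower (median 0.36). The part of these shifts in the globin differences was not tested.

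JQ1 against DMSO in LSK makes the same comparison in stem and multipotent progenitors. Hba-a1 was 1.62-fold lower on the JQ1 array (-0.70 ± 0.22) and Hba-a2 1.79-fold lower (-0.84 ± 0.20), both short of the call. Hbb-b1 read -0.26 ± 0.24, close to its error, and Hbb-bt 0.02 ± 0.20. The sign for Hbb-b1 turned with spike-in scaling (0.26). Of the 3 measured members, 0 were called in either direction, where 0.543% of 12328 measured genes were called higher and 3.22% lower. The direction of Hba-a1 was the same in all 8 alternatives, from -0.70 to -0.18. The embryonic members were below background on both LSK arrays, so no fold is given.

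The alpha globin difference between the JQ1 and DMSO arrays was thus positive in MEP and negative in LSK, with 1 array a group and no test. The LSK value was short of the call, and for Hba-a1 it was -0.18 with spike-in scaling, less than the probe SD of 0.26. Subtracting the LSK value from the MEP value gave 2.14 ± 0.30 log2 for Hba-a1 and 2.44 ± 0.29 for Hba-a2, ranking them at 27 and 15 of 12016 genes measured on all 4 arrays. For Hbb-bt it was 0.66 ± 0.29 and for Hbb-b1 0.29 ± 0.32. Of the 3 measured members, 1 was 2-fold apart between the cell types and higher in MEP, where 3.37% of all genes were higher and 5.83% lower. Spike-in scaling lowered the Hba-a1 value to 1.06 and turned the signs for Hbb-bt (-0.42) and Hbb-b1 (-0.79).

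**Figure D2:**
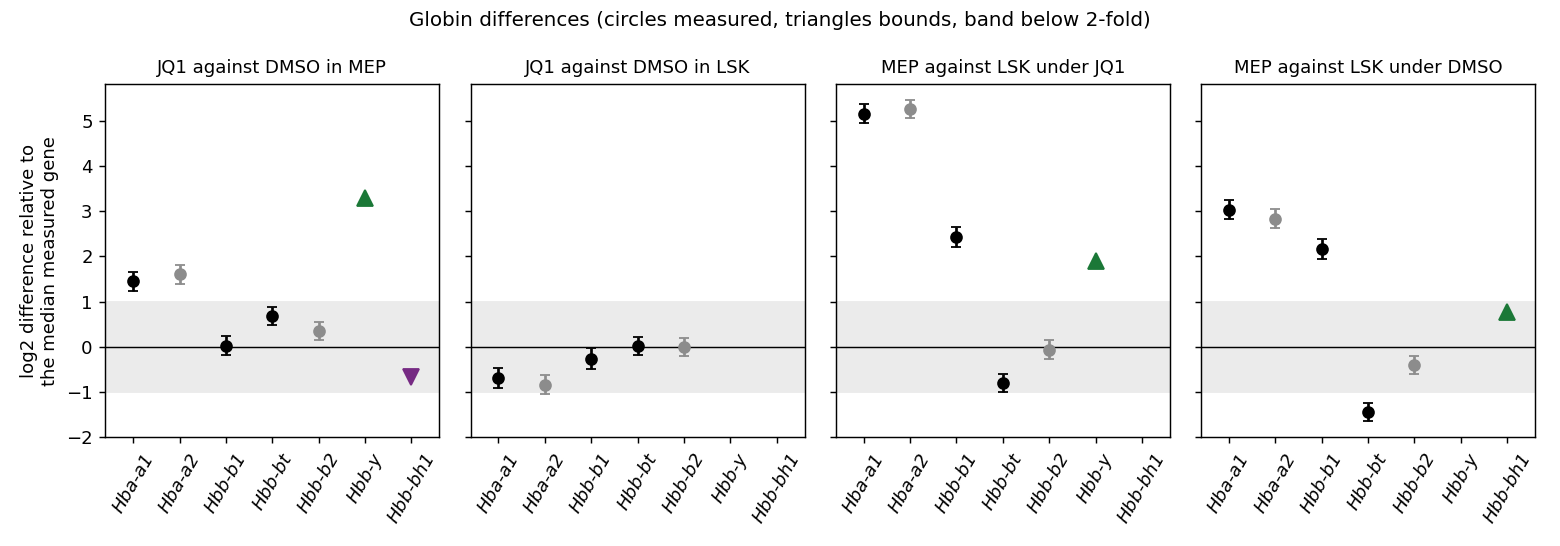
Log2 difference of each globin probe relative to the median measured gene (y axis) in the 4 comparisons, with circles for genes above background on both arrays, bars for the scanner error of the difference, and triangles for bounds (up for at least that much higher, down for lower). Black circles are members and grey circles Hba-a2 and Hbb-b2. Hba-a1 stands at 1.45 and -0.70 for JQ1 in MEP and LSK and at 5.16 and 3.03 for MEP against LSK under JQ1 and DMSO, and Hbb-bt lies below 0 in both comparisons of the cell types.

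MEP against LSK compares globin levels in the more erythroid with the less committed progenitors. Under JQ1, Hba-a1 was 35.8-fold higher in MEP (5.16 ± 0.21), at rank 11 of 12263, and Hbb-b1 5.41-fold higher (2.43 ± 0.22). With normexp correction these differences were 4.50 and 1.54 log2. Hbb-bt was 1.74-fold lower in MEP (-0.80 ± 0.20). Of the 3 measured members, 2 were called higher and 0 lower, where 3.94% of all measured genes were called higher and 4.01% lower. Hbb-y was at least 3.71-fold higher in MEP by its brighter probe and at least 3.62-fold by the other. That bound was 2.99-fold with the stricter floor, and 0.66 log2 with normexp correction, below the call. This was the 1 member above background on 1 array only, where bounds called 72.6% of such genes higher.

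Under DMSO, Hba-a1 was 8.18-fold higher in MEP (3.03 ± 0.21), at rank 35 of 12407, and Hbb-b1 4.47-fold higher (2.16 ± 0.23). With normexp correction they were 2.63 and 1.46 log2. Hbb-bt was 2.74-fold lower in MEP (-1.45 ± 0.20), among the 183 lowest genes. Thus 2 of the 3 measured members were called higher and 1 lower, where 5.68% of measured genes were called higher and 4.32% lower. The sign for Hbb-bt held in all 8 alternatives in both treatments, but spike-in scaling brought it below the call here (-0.58). Hbb-bh1 was at least 1.70-fold higher in MEP, short of the call. It was near 1-fold with the stricter floor (0.01 log2) and below 0 with normexp correction (-0.05), in a comparison where 26.0% of genes above background in MEP alone were called by their bounds. MEP and LSK also differed in megakaryocyte markers, with a summed level of 110 in JQ1 MEP, 117 in DMSO MEP, 14.4 in JQ1 LSK and 20.0 in DMSO LSK. Pf4 was the brightest of them on both MEP arrays, at 17083 under JQ1 and 29873 under DMSO. Relative to the median gene, 6 of 8 measured were called higher in MEP under JQ1 and 1, Mmrn1, lower (-2.03). Under DMSO 6 of 9 were called higher and 0 lower, with Gp1ba lowest (-0.31). Gp6 was below background on every array.

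Apart from Hba-a2 and Hbb-b2, the globins outside the list were near or below background. Hbq1a, a theta globin, was above background in JQ1 MEP only, at 21.0 against 8.93 in DMSO MEP, and its bound of 2.60-fold did not hold with the stricter floor (0.90-fold). Hbq1b, the other theta globin, was above background in DMSO LSK only, at 29.8, against 4.72 in JQ1 LSK and 7.64 in DMSO MEP. The beta-like Hbb-bh2 read 56.1 in DMSO LSK by 1 probe, against 3.87 in JQ1 LSK and 3.74 in DMSO MEP, but its other probe read 5.22 in DMSO LSK. These last 2 genes were called lower by bounds in JQ1 LSK and in DMSO MEP against DMSO LSK, where 88.8% and 95.3% of genes above background in DMSO LSK alone were called. With the stricter floor Hbb-bh2 was at least 2.57-fold and 2.91-fold lower, but the Hbq1b bounds of 1.36-fold and 1.55-fold were short of the call. Myoglobin Mb and neuroglobin Ngb were above background on no array, and cytoglobin Cygb, above it in JQ1 LSK only, read 19.3 to 25.1.

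Genes that supply heme to globin were nearly all above background in both cell types. In MEP, 1 of 18 measured heme and iron genes was called higher under JQ1 and 0 lower, with a median of 0.29. The called gene was coproporphyrinogen oxidase Cpox, at 8256 in JQ1 MEP and 3905 in DMSO MEP (1.23). Next was the mitochondrial transporter Abcb10 (0.77), and the lowest were heme oxygenase Hmox1 (-0.80), which degrades heme, and the mitochondrial iron importer Slc25a37 (-0.52). Alas2, the erythroid enzyme that starts heme synthesis, read 32.3 in JQ1 MEP against 4.96 in DMSO MEP and 4.36 in JQ1 LSK. It was above background in JQ1 MEP alone, as Hbb-y was, but its JQ1 difference reached only 1.39-fold with the stricter floor. In LSK 0 of the 18 were called, with values from -0.21 (the iron transporter Slc11a2) to 0.39 (the heme-regulated kinase Eif2ak1). Against LSK, 7 of 18 were called higher in MEP under JQ1 and 4 of 18 under DMSO. They were led by Cpox (3.03 and 1.82) and the transferrin receptor Tfrc (1.78 and 1.44).

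Many red cell membrane and enzyme genes separated the cell types as the Hba-a1 and Hbb-b1 probes did, but some did not. Under JQ1, 7 of 12 measured genes were called higher in MEP and 0 lower. By bounds, 9 more were called higher and 1, Epb42, lower (-3.53), where bounds called 72.6% of all genes above background in MEP alone. Under DMSO 8 of 13 were called higher and 0 lower, and by bounds 7 higher and Epb42 lower (-3.45), where that share was 26.0%. Of genes above background in DMSO LSK alone, bounds called 95.3% lower in DMSO MEP. Carbonic anhydrase Car1 read 8884 in JQ1 MEP and 16115 in DMSO MEP, against 164 and 291 in JQ1 LSK and DMSO LSK. The blood group gene Rhd read 2586 and 1588, against 57.7 and 38.3. The lowest measured in MEP against LSK were Ermap (0.15) and Bpgm (0.17) under JQ1 and Bpgm (-0.21) and Slc4a1 (0.17) under DMSO. In MEP 0 of 21 were called under JQ1, with a median of 0.32, from Kel (-0.90) and Ermap (-0.75) to Cldn13 (0.85) and Rhd (0.85). In LSK 1 of 12 was called higher (Epb42) and 2 lower, Tspo2 (-1.30) and Car1 (-1.11), which lay on the same side as Hba-a1. Kel and Cldn13 were called lower by bounds, where bounds called 88.8% of all genes above background in DMSO LSK alone.

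Transcription factors of the erythroid lineage and the erythropoietin receptor were called in neither cell type under JQ1 (0 of 15 in each). Klf1, which binds the CACCC sites of globin promoters, read 1933 in JQ1 MEP and 1277 in DMSO MEP (0.75), and Gata1 stood at 0.72. The lowest in MEP were Ldb1 (-0.41), which joins promoters to distant enhancers, and Stat5b (-0.02). In LSK the range was from Gata1 (-0.23) and Klf1 (-0.22) to the repressor Gfi1b (0.65) and the adaptor Lmo2 (0.35). Against LSK, 7 of 15 were called higher in MEP under JQ1 and 6 under DMSO, led by Klf1 (4.74 and 3.79) and the erythropoietin receptor Epor (4.06 and 3.55).

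Among regulators of the embryonic to adult globin switch few genes were called. Of 21 measured, 1 was called higher in MEP under JQ1 and 0 lower, with a median of 0.22. The called gene was the RNA-binding protein Igf2bp3 at 81.5 in JQ1 MEP and 35.3 in DMSO MEP (1.36). The repressor Bcl11a came next (0.54), and the chromatin protein Hmga2 (-0.77) and the repressor Hic2 (-0.48) were lowest. In LSK 0 of 21 were called, from Bcl11a (-0.13) to Lin28b (0.57). Sox6 and Igf2bp1 were below background on every array. Ezh2 itself read 3009 in JQ1 MEP, 3235 in DMSO MEP, 2628 in JQ1 LSK and 2164 in DMSO LSK, and whether its probe lies in the deleted part is not known here, so it checks nothing. Between the cell types 0 were called higher and 1 lower in each treatment, Hmga2 under JQ1 (-1.38) and Igf2bp3 under DMSO (-1.39).

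**Figure D3:**
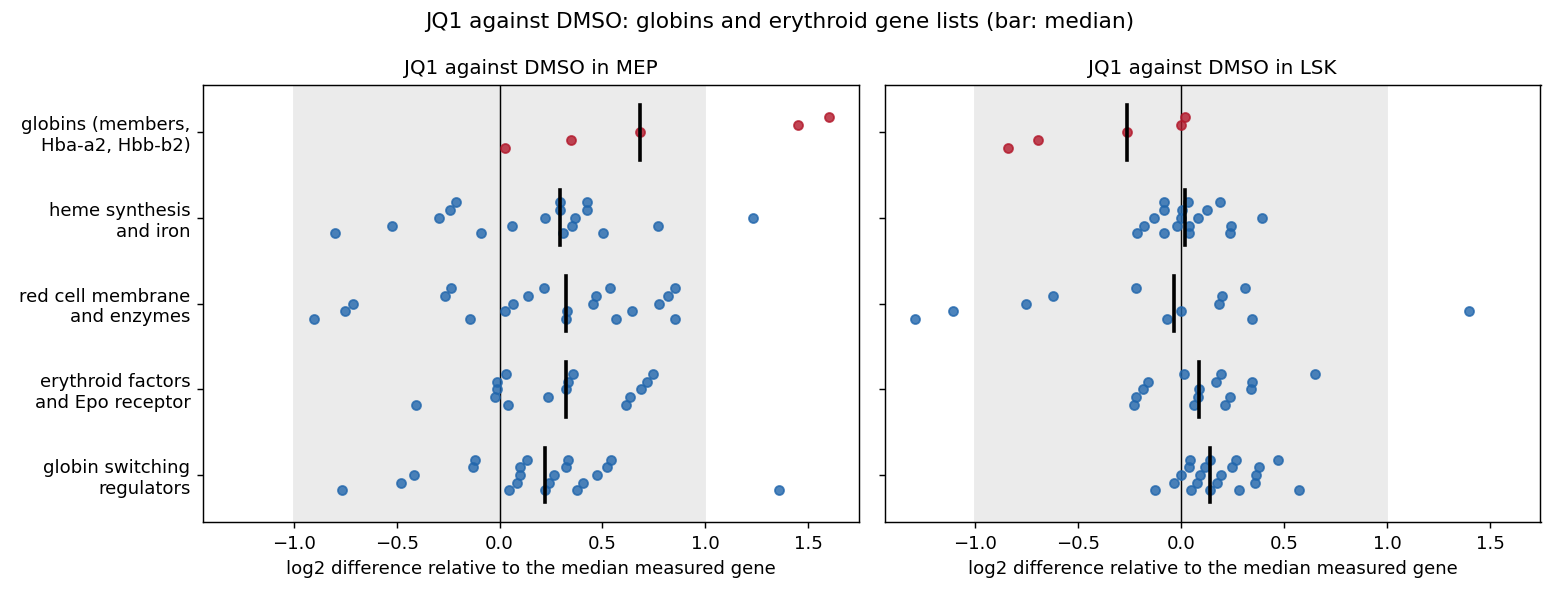
Log2 difference for JQ1 against DMSO (x axis, relative to the median measured gene) in MEP and in LSK for the globins measured on both arrays and for 4 gene lists, with 1 point a gene, black bars for medians and a grey band below 2-fold. In MEP the alpha globins stand at 1.45 and 1.60 with Cpox at 1.23 and Igf2bp3 at 1.36, and in LSK they lie at -0.70 and -0.84.

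**Figure D4:**
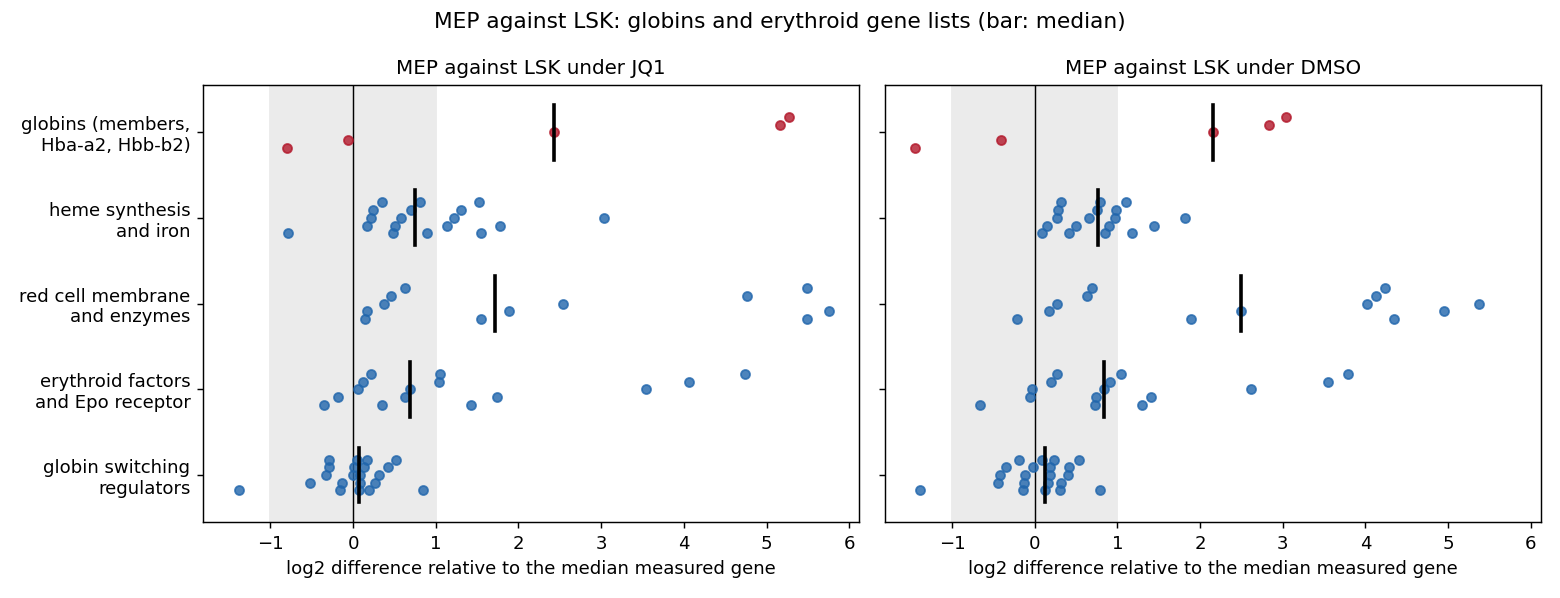
Log2 difference for MEP against LSK (x axis, relative to the median measured gene) under JQ1 and under DMSO, drawn in the same way. The alpha globins, Hbb-b1, Car1, Rhd, Klf1 and Epor lie far to the right, and Hbb-bt lies at -0.80 under JQ1 and -1.45 under DMSO.

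Genes with the most similar pattern over the 4 arrays were found by the distance between their log2 values, each reduced by the gene's own mean, among 12015 other genes. Nearest to Hba-a1 was Hba-a2 (distance 0.16), then Klf1 (0.62), the sodium pump subunit Atp1b2 (0.78), Epor (0.91) and Samd14 (0.94). Hbb-b1 was nearest to the growth factor Gdf3 (0.19), the platelet receptor Treml1 (0.23), the ADP receptor P2ry1 (0.29), the red cell adhesion molecule Icam4 (0.29) and Nipa1 (0.30). Hbb-bt was nearest to the growth factor Vegfc (0.18), the lipid flippase Atp8a2 (0.20), the matrix protein Fbln1 (0.26), the peptidase Erap1 (0.26) and Gimap8 (0.27). Counted from Hba-a1, Hbb-b1 was at place 70 and Hbb-bt at place 11659. The globins were therefore not each other's nearest genes, apart from the alpha pair. The 4 points of each pattern share the arrays and their scaling, and a flat gene is close to many others.

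**Figure D5:**
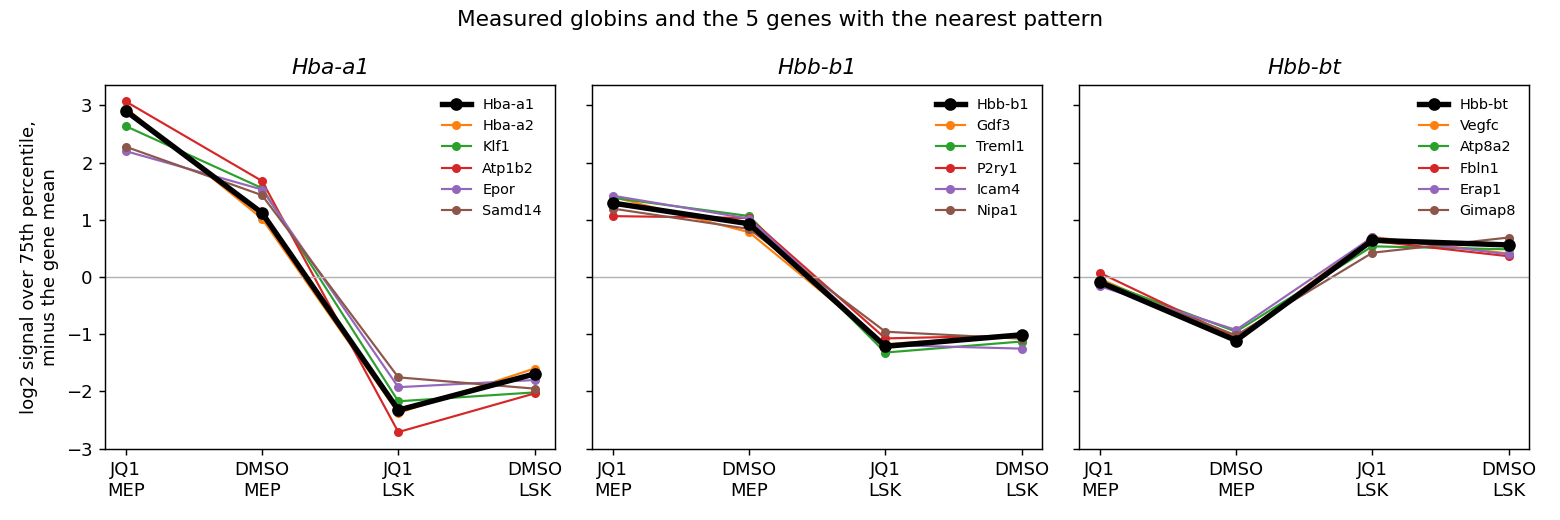
Log2 signal over the array's 75th percentile minus the gene's mean over the 4 arrays (y axis) for Hba-a1, Hbb-b1 and Hbb-bt (black) and the 5 genes nearest to each. Hba-a1 lies at 2.90 in JQ1 MEP and 1.12 in DMSO MEP, against -2.33 in JQ1 LSK and -1.70 in DMSO LSK, and Hbb-bt has its lowest point in DMSO MEP (-1.11).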

How the data were processed

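RNA (20 ng total, Cy3-labelled, per the labels' protocols) from sorted cells was read on 4 arrays. Per the file headers, the authors extracted scans with Agilent Feature Extraction 10.7.1.1 on a design with mm9 positions. The deposited scanner files hold, per spot, a background-subtracted processed signal and its error as an intensity, raw median signals, and yes or no marks. The authors' deposited table holds a ratio: processed signals over a constant of each array, for 100.0% of probes above 1, to within 1%.

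Log2 processed signals were averaged over spots with no outlier mark and reduced by the array's 75th percentile (233 in JQ1 MEP, 327 in DMSO MEP, 245 in JQ1 LSK, 210.2 in DMSO LSK). No spot was saturated. RefSeq (GRCm38.p6) transcripts named 28026 probes (50.3%) with 1 symbol, and 27655 had none. The brightest probe stood for a gene in counts. The median gene differed by 0.34 log2 (JQ1 against DMSO in MEP), 0.06 (in LSK), 0.07 (MEP against LSK under JQ1) and -0.22 (under DMSO), which was subtracted. A difference with 1 array below background is a bound from the dim probe's own reading or the lowest signal well above background there, whichever was higher. Precision is limited by having 1 array a group. The members and all 10 lists were chosen with earlier results of these data known. Named genes are the members, the 2 highest and 2 lowest measured genes of each pathway list, and the 5 nearest patterns; others (Elane, Alas2, Ezh2 and further list genes) were chosen after their values were seen. The functions were tested on simulated data. Alternatives were other scaling, normexp (limma 3.58.1, offset 50, on median signals, as the files hold no mean signal), the deposited table, no filter and the mean over probes. Python 3.11.15 was used.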

Additional observations from a re-analysis of the deposited data

Results flagged for a closer look

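The JQ1 difference of alpha globin had opposite signs in the cell types, each larger than the SD among probes of the same gene as reported, though for Hba-a1 in LSK not with spike-in scaling (-0.18). For Hba-a1 the difference was 1.45 in MEP and -0.70 in LSK, which are 2.14 log2 apart. For Hba-a2 it was 1.60 in MEP and -0.84 in LSK, which are 2.44 log2 apart. With 1 array a group this contrast was not tested, and the alpha probes may read the same transcripts, so they do not count as independent.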

How the results depend on the processing

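No paired analysis was possible because each group has 1 array and the results come from no test, and the slide could not be used as a block since all arrays lie on it. Of the values of the members, Hba-a2 and Hbb-b2 under alternatives, 188 of 236 stayed within the SD among probes of the same gene, 48 moved by more, and no called value changed sign. The count of members called higher in JQ1 MEP against DMSO MEP, 1 as reported, was 2 with scaling to the median, with the 75th percentile without centring and with no background filter, and 0 with spike-in scaling. The count called lower in DMSO MEP against DMSO LSK, 1 as reported, was 0 with spike-in scaling. The count called higher in JQ1 MEP against JQ1 LSK, 2 as reported, was 3 with no background filter. The other counts of members were as reported in all 8 alternatives. Scaling moved all genes together: the median gene of JQ1 against DMSO in MEP lay at 0.75 with scaling to the median and at -0.56 with spike-in probes, and that of MEP against LSK under DMSO at -0.32 and 0.88. Of 640 counts over lists under alternatives, 561 stayed within 1.5 times. The split over all genes of 123 higher and 724 lower (JQ1 against DMSO in MEP) was 3037 and 172 with scaling to the median, 373 and 367 without centring, and 33 and 2367 with spike-in probes. The DMSO MEP array, which has the lowest correlations with the others, enters JQ1 against DMSO in MEP and MEP against LSK under DMSO, and neither can be computed without it.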

Other observations

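Epb42, a membrane skeleton gene of red cells, ran against most other genes of its list. It read 20.2 in JQ1 MEP and 8.81 in DMSO MEP, below background on both arrays, against 234 in JQ1 LSK and 73.1 in DMSO LSK. It was at least 8.41-fold lower in MEP than in LSK under JQ1 and at least 3.79-fold lower under DMSO with the stricter floor. In LSK it was 2.64-fold higher under JQ1 (1.40). It was chosen after its values were seen, and like the Hbb-bt probe it read brighter in LSK than in MEP. Which transcripts the Hbb-bt probe reads is not known here.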
